A study of Homo sapiens with 4 samples.

Results

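SR proteins, their SR-related cofactors and the kinases that phosphorylate them were described across 4 RNA-seq libraries of HEK293, a human embryonic kidney cell line. The 41 genes were taken by symbol from a list of SR proteins, SR-related cofactors and CLK and SRPK kinases, out of 40188 genes with a value in the files. All 41 were found once each, and all 41 had a mean level of at least 1 cRPKM (corrected RPKM, the reads of a gene scaled to its length and to the library), as did 12706 genes in all. Stable lines carried a doxycycline-inducible transgene, which was SRRM4 in the first group, SRRM3 in the second, MSI1 in the third and an empty vector in the control, with 1 library each. Every line, the control included, was grown in tetracycline-free serum and received doxycycline at 1 µg/mL for 24 h before polyA-selected, stranded sequencing. The study asked how the proteins named in its title regulate retinal microexons. The sources used here do not give whether a line was 1 clone or a pool.

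SR proteins bind RNA through RNA-recognition motifs and contact other splicing factors through a domain of arginine-serine repeats. They bind exonic enhancers and help U1 snRNP and U2AF to recognise the splice sites at the ends of the exon. SRPK kinases phosphorylate the repeats mainly in the cytoplasm, which favours nuclear import, and CLK kinases act on them in the nucleus. SRRM3 and SRRM4 are themselves rich in serine and arginine and promote the inclusion of very short neural exons, and SRSF11 and RNPS1 are known as cofactors of that activity. MSI1 is an RNA-binding protein of neural progenitors and photoreceptors.

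Total counts were between 60288244 and 63003121 per library. The induced gene had 63.8 cRPKM in the SRRM4 library against 0.39 in the empty vector, 38.5 in the SRRM3 library against 0.49, and 62.4 in the MSI1 library against 8.38. Of the HEK293 markers, VIM lay between 909 and 1211 cRPKM and LIN28B between 27.6 and 28.9, while LHX1 and EMX2 lay between 2.2 and 4.75 and PAX2 between 0.73 and 1.25 in the 4 libraries. The summed level of 6 fibroblast markers was 3.92 cRPKM in SRRM4, 3.63 in SRRM3, 4.62 in MSI1 and 3.9 in the empty vector. Most of it was COL1A1, at 3.39, 3.23, 4.29 and 3.31 cRPKM in the same order. LUM lay between 0.17 and 0.4 cRPKM, COL3A1 between 0.02 and 0.21 and PDGFRB between 0.02 and 0.05, with COL1A2 and DCN at 0 in all 4. Of the blood cell markers, CD68 had 4.63 cRPKM in SRRM4, 5.12 in SRRM3, 7.06 in MSI1 and 5.23 in the empty vector, and PTPRC was at 0.01 or 0. Mitochondrially encoded mRNAs took 0.891% of counts in SRRM4, 1.28% in SRRM3, 1.02% in MSI1 and 0.838% in the empty vector, and their part in the differences below was not tested. With 1 library per group there is no replicate check and no p-value, and a difference between lines cannot be told apart from an effect of the transgene. Ratios below are of depth-scaled counts, with 95% intervals that cover counting error only. A gene was called higher or lower when its cRPKM ratio, with 0.5 added to both values, was at least 1.2-fold and the interval excluded 1.

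The SR genes were among the more abundant transcripts of these cells and differed little between libraries. Their mean levels over the 4 libraries had a median of 57.7 cRPKM, against 11.0 for all genes tested. The highest was SRSF1, a founding SR protein that binds purine-rich enhancers, at 229 cRPKM in SRRM4, 227 in SRRM3, 175 in MSI1 and 207 in the empty vector. The lowest was CLK4, a nuclear kinase of RS domains, at 4.86 cRPKM in SRRM4, 4.41 in SRRM3, 4.64 in MSI1 and 5.23 in the empty vector. The ratio of the highest to the lowest library had a median of 1.15 over the 41 genes, between 1.04 for CLK1 and 1.52 for LUC7L, against a median of 1.196 over 12703 genes tested and 1.17 over the 9011 of them with a mean of at least 5 cRPKM. Together the 41 genes took 0.822% of counts in SRRM4, 0.788% in SRRM3, 0.730% in MSI1 and 0.778% in the empty vector.

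**Figure D1:**
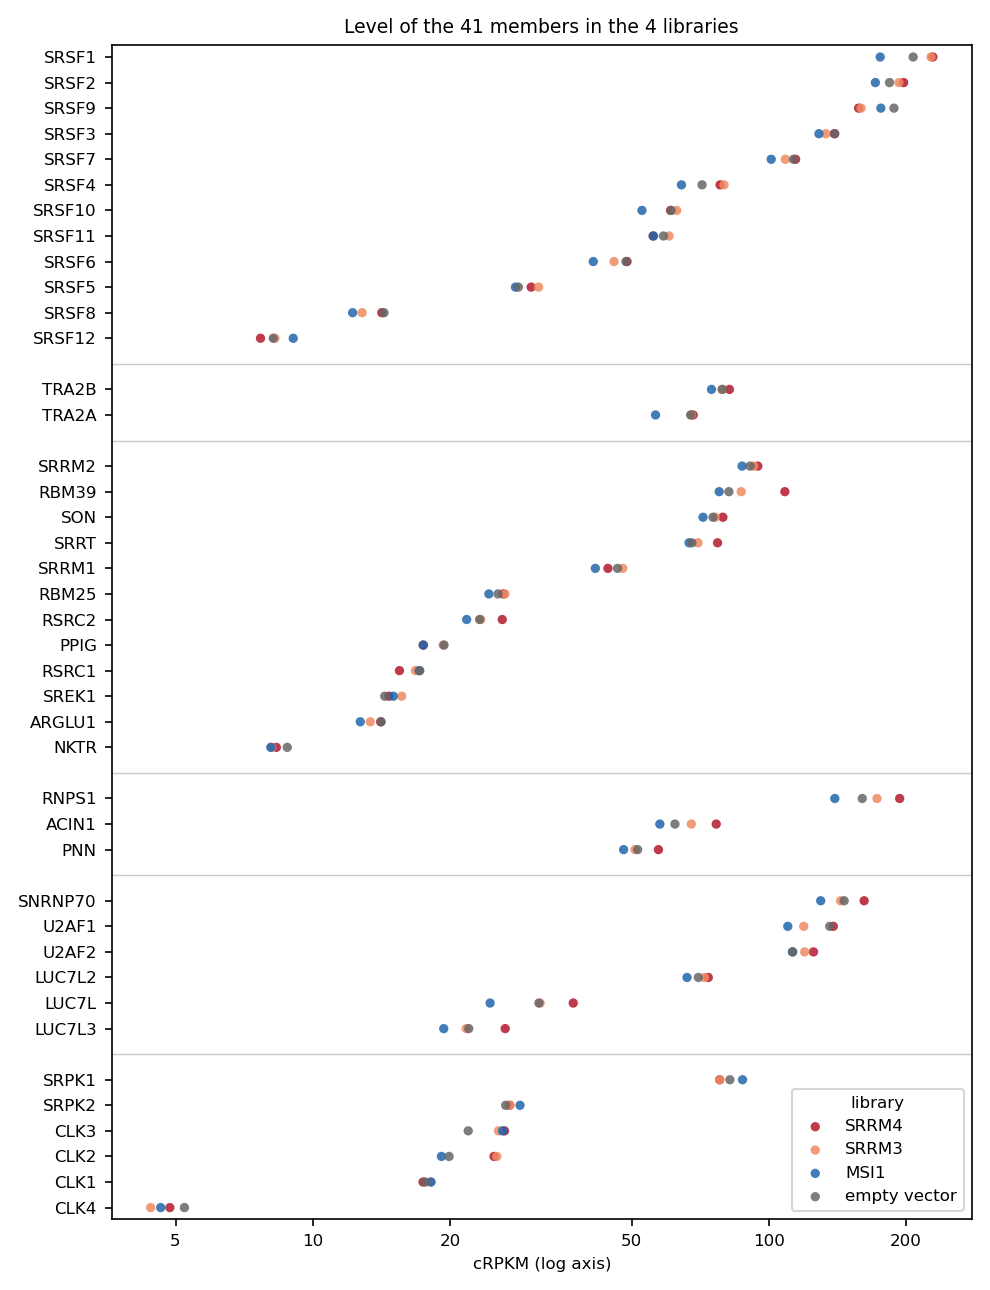
Level of the 41 genes (horizontal log axis, cRPKM) in the 4 libraries, 1 point per library, grouped as SR proteins, TRA2 proteins, SR-related cofactors, exon junction proteins, splice site factors and kinases. Points of a gene lie close together, and the MSI1 point is the lowest for 29 of the 41 genes.

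SRSF11 and RNPS1, the cofactors of SRRM3 and SRRM4, did not share a pattern. SRSF11 (ENSG00000116754, GRCh38 chromosome 1, 70205682 to 70253052) is an SR protein that works with SRRM4 upstream of microexons. It had 55.7 cRPKM in SRRM4, 60.4 in SRRM3, 55.9 in MSI1 and 58.8 in the empty vector, from between 12551 and 14198 reads. SRRM3 was the highest library and SRRM4 the lowest, with a ratio of 0.922 (0.90 to 0.945) of SRRM4 to SRRM3. Against the empty vector the ratio was 0.949 (0.926 to 0.972) in SRRM4, 1.03 (1.005 to 1.05) in SRRM3 and 0.951 (0.928 to 0.974) in MSI1, so that none passed the 1.2-fold rule. With TMM scaling the SRRM3 interval included 1, at 1.02 (0.997 to 1.045).

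RNPS1 (ENSG00000205937, chromosome 16, 2253116 to 2268412) is a peripheral component of the exon junction complex, which marks spliced mRNA. It had 193.6 cRPKM in SRRM4, 172.7 in SRRM3, 139.6 in MSI1 and 160.3 in the empty vector, from 25586, 23812, 19275 and 21813 reads. Both SRRM libraries were above the empty vector and MSI1 was below it. The ratio to the empty vector was 1.21 (1.19 to 1.23) in SRRM4, which passed the rule, 1.08 (1.06 to 1.098) in SRRM3 and 0.871 (0.854 to 0.888) in MSI1, which did not. SRRM4 over SRRM3 gave 1.12 (1.101 to 1.14).

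The 250 bases before the RefSeq start of 6 of these genes are shown, the 2 cofactors and 4 other genes called in a comparison below, to let their promoters be compared. They are on GRCh38.p14, written 5′ to 3′ on the gene's strand, with the window nearest to the GENCODE 29 start taken where RefSeq gives several. Capitals mark the GC box GGGCGG, the ETS core CCGGAAG, the CCAAT box CCAAT, the E-box CACGTG, the cAMP response element TGACGTCA, the palindromic NRF1 site and the TATA box TATAAA, searched on both strands with overlaps between motifs allowed.
SRSF11, chr1:70205446-70205695, plus strand: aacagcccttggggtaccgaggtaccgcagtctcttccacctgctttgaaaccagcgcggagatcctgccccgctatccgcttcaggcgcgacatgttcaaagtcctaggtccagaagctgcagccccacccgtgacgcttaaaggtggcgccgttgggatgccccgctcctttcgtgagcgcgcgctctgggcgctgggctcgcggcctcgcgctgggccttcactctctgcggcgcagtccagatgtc
RNPS1, chr16:2268127-2268376, minus strand: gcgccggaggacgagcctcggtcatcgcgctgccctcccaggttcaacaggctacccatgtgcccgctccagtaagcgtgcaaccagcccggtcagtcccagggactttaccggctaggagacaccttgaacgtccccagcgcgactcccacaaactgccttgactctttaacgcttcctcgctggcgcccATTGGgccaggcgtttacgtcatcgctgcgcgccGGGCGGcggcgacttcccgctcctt
ACIN1, chr14:23095472-23095721, minus strand: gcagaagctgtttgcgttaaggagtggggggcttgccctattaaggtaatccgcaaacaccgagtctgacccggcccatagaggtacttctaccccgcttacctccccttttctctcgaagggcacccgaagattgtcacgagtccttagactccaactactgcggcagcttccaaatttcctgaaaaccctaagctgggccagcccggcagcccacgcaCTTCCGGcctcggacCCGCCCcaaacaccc
CLK2, chr1:155273505-155273754, minus strand: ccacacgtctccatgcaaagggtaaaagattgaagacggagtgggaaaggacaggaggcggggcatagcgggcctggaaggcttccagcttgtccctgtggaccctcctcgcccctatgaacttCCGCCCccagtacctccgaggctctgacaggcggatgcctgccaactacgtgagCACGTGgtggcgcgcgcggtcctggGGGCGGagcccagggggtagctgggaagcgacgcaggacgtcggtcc
LUC7L, chr16:229450-229699, minus strand: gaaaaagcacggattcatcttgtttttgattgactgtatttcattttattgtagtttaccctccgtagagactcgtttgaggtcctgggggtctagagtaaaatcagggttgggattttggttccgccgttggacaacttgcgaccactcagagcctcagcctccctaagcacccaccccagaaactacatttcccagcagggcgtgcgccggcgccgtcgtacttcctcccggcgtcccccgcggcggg
LUC7L3, chr17:50719353-50719602, plus strand: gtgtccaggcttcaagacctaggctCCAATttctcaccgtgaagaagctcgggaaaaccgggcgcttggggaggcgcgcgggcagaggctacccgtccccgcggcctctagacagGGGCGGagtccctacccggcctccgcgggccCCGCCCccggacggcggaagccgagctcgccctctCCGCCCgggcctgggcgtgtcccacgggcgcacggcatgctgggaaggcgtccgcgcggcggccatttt
The CLK2 and RNPS1 windows lie inside the genes as GENCODE 29 annotates them, downstream of their outermost starts. Neither SRSF11 nor LUC7L held any of these motifs in its window. RNPS1 held a GC box and a CCAAT box, as did LUC7L3, while ACIN1 held a GC box and an ETS core and CLK2 a GC box and an E-box. RefSeq windows were matched for 37 of the 41 genes, 53 windows in all, and none were matched for SRSF2, TRA2A, RBM39 and PPIG. A GC box was in 56.6% of these windows, against 42.6% of all 35116 RefSeq windows, and an ETS core in 13.2%, against 8.52%. A CCAAT box was in 26.4% against 32.0%, an E-box in 5.66% against 6.34%, a TATA box in 5.66% against 10.7%, a cAMP response element in 1.89% against 1.65%, and an NRF1 site in 0% against 1.03%. The median GC content of the windows was 64.0% against 58.0%. These matches describe the letters only and say nothing about binding.

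In SRRM4 over the empty vector 4 of the 41 genes were called higher, RBM39, CLK2, ACIN1 and RNPS1, where 3.57% of 12705 genes tested were called. None was called lower, where 3.87% of the tested genes were. The median log2 fold of the 41 genes was 0.036, against -0.0035 for all genes tested, and 27 of 41 had a positive fold, against 48.5% of all genes. At any size of fold, 20 of the 41 had an interval above 1, against 23.2% of genes tested and 27.1% of the 9013 with a mean of at least 5 cRPKM, where intervals are narrower. Here and below, genes at 5 cRPKM or more do not match the 41 in level, at a median of 17.6 cRPKM against 57.7. An interval below 1 was found for 7 of the 41, against 25.1% of genes tested and 28% of those at 5 cRPKM or more. A negative fold was found for 14 of the 41, against 50.9% of all genes. At 2-fold none of the 41 was called, against 0.362% of genes tested higher and 0.0551% lower.

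RBM39 (ENSG00000131051, chromosome 20, 35701347 to 35742312) was the gene of the list that differed most from the empty vector. It encodes a coactivator of splicing related in sequence to U2AF2. It had 108 cRPKM in SRRM4, 87.0 in SRRM3, 77.8 in MSI1 and 81.8 in the empty vector. SRRM4 stood above the other 3 libraries, with a ratio of 1.33 (1.298 to 1.36) to the empty vector and 1.25 (1.22 to 1.27) to SRRM3. In SRRM3 and MSI1 the ratios to the empty vector were 1.06 (1.04 to 1.09) and 0.952 (0.93 to 0.975).

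ACIN1 and PNN, which join RNPS1 in alternative complexes at the exon junction, were also highest in SRRM4 and lowest in MSI1. ACIN1 (ENSG00000100813, chromosome 14, 23058564 to 23095614) had 76.7 cRPKM in SRRM4, 67.6 in SRRM3, 57.7 in MSI1 and 62.2 in the empty vector. Its ratio to the empty vector was 1.23 (1.199 to 1.27) in SRRM4, 1.09 (1.06 to 1.12) in SRRM3 and 0.927 (0.90 to 0.954) in MSI1. PNN had 57.3, 50.9, 48.0 and 51.6 cRPKM in SRRM4, SRRM3, MSI1 and the empty vector, with a ratio of 1.11 (1.08 to 1.14) in SRRM4, and passed the rule in no comparison. Summed over RNPS1, ACIN1 and PNN, the level was 328 cRPKM in SRRM4, 291 in SRRM3, 245 in MSI1 and 274 in the empty vector. Of 8 further exon junction genes and partners, none was called in SRRM4 over the empty vector, where 3.57% of genes tested were called higher, and their median log2 fold was -0.010.

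All 6 splice site recognition factors on the list were highest in SRRM4, and 5 of the 6 were lowest in MSI1. For 2 of the 6 the lead of SRRM4 was within counting error. U2AF1 had a ratio of 1.02 (0.927 to 1.12) to the empty vector, and LUC7L2 1.02 (0.993 to 1.05) to SRRM3. For comparison, SRRM4 was the highest library for 21.0% of 12703 genes tested, and for 21 of the 41 genes listed. MSI1 was the lowest library for 26.5% of genes tested, and for 29 of the 41. LUC7L3 (ENSG00000108848, chromosome 17, 50719544 to 50756213), one of 3 human relatives of a yeast U1 snRNP protein, had 26.4 cRPKM in SRRM4, 21.7 in SRRM3, 19.4 in MSI1 and 22.0 in the empty vector. SRRM4 stood above the other libraries, with a ratio of 1.22 (1.18 to 1.25) to SRRM3, which passed the rule, and 1.202 (1.17 to 1.24) to the empty vector, which fell just short of it at a log2 fold of 0.260 with the added 0.5. LUC7L (ENSG00000007392, chromosome 16, 188969 to 229463) had 37.2 cRPKM in SRRM4, 31.5 in SRRM3, 24.5 in MSI1 and 31.3 in the empty vector. It was the gene of the list with the widest spread, high in SRRM4 and low in MSI1 with SRRM3 beside the empty vector. Its ratio to the empty vector was 1.19 (1.14 to 1.24) in SRRM4 and 1.01 (0.963 to 1.05) in SRRM3, neither past the rule, and 0.782 (0.746 to 0.819) in MSI1, which was called lower. LUC7L2, the most abundant of the 3, lay between 66.2 and 73.7 cRPKM with a ratio of at most 1.05 to the empty vector.

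SNRNP70, the U1 protein that binds the first stem of U1 RNA, had 162 cRPKM in SRRM4, 144 in SRRM3, 129.96 in MSI1 and 146 in the empty vector, and passed the rule in none of the comparisons with the empty vector. U2AF2, which binds the polypyrimidine tract, lay between 113 and 125 cRPKM. U2AF1, which reads the AG at the end of the intron, needs a caution because GRCh38 holds a second copy, U2AF1L5, that the files list separately. U2AF1 (ENSG00000160201, chromosome 21, 43092956 to 43107587) rested on 885 reads in SRRM4, 795 in SRRM3, 735 in MSI1 and 895 in the empty vector. Its count and cRPKM imply an effective length of 106 bases, against 1152 to 9302 bases for the other 40 genes. It was called lower in MSI1 over the empty vector, with 110.1 against 136 cRPKM and a ratio of 0.809 (0.733 to 0.893). Summed with U2AF1L5 the ratio was 0.889 (0.823 to 0.96), and U2AF1L5 alone had 1.03 (0.91 to 1.17), so the split of reads between the copies is uncertain.

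**Figure D2:**
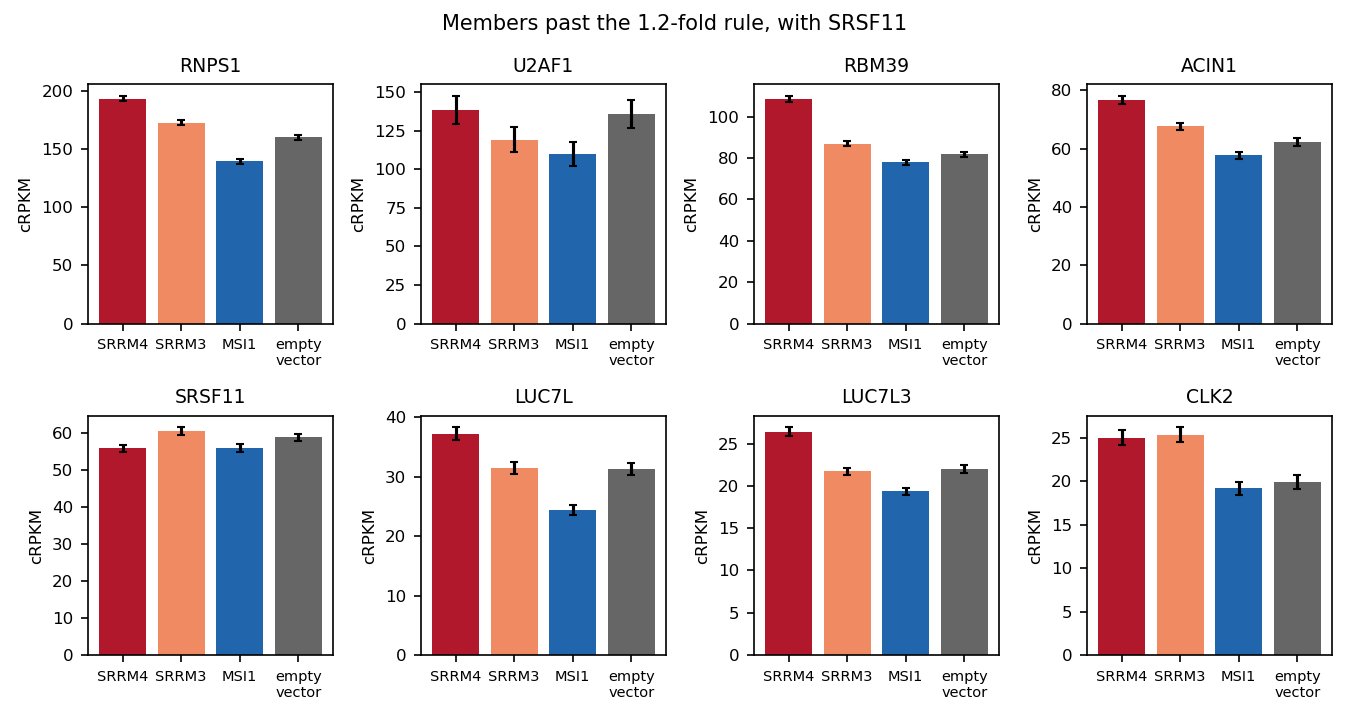
Level (vertical axis, cRPKM, from 0) in the SRRM4, SRRM3, MSI1 and empty-vector libraries of the 7 genes past the 1.2-fold rule in SRRM4 over SRRM3 or in a line over the empty vector, with SRSF11. Error bars are 95% counting error of 1 library. RBM39 stands highest in SRRM4 at 108 cRPKM, LUC7L lowest in MSI1 at 24.5, and CLK2 is higher in both SRRM libraries.

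CLK2 was the only gene of the list at least 1.2-fold above both the MSI1 and the empty-vector library in both SRRM libraries, which 0.764% of 12703 genes tested were. None of the 41 was lower by that rule, as 0.409% of genes tested were. CLK2 (ENSG00000176444, chromosome 1, 155262868 to 155278491), a nuclear kinase of SR proteins, had 24.97 cRPKM in SRRM4, 25.3 in SRRM3, 19.1 in MSI1 and 19.9 in the empty vector, from 3187, 3371, 2554 and 2616 reads. The SRRM libraries lay together above the other 2, with ratios to the empty vector of 1.25 (1.19 to 1.32) in SRRM4 and 1.27 (1.21 to 1.34) in SRRM3, against 0.962 (0.911 to 1.02) in MSI1. HCN3, which overlaps CLK2 on the opposite strand, had 2.01, 1.9, 1.59 and 1.3 cRPKM in SRRM4, SRRM3, MSI1 and the empty vector. The sources used here do not give whether counting used strand, so that reads of the overlap cannot be assigned.

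The other CLK genes did not follow CLK2. CLK3 had 26.3 cRPKM in SRRM4, 25.5 in SRRM3, 26.1 in MSI1 and 21.9 in the empty vector, so that all 3 induced lines were above the control, with ratios of 1.201 (1.14 to 1.27), 1.165 (1.104 to 1.23) and 1.19 (1.13 to 1.25), none past the rule. EDC3, on the opposite strand of CLK3 along 14857 bases, lay between 32.3 and 36.7 cRPKM. CLK1, known for producing transcripts with retained introns that stay in the nucleus, had 17.4, 18.1, 18.2 and 17.6 cRPKM in SRRM4, SRRM3, MSI1 and the empty vector, the smallest spread of the list. CLK4 was lower than the empty vector in SRRM3 with a ratio of 0.844 (0.761 to 0.935), from 693 against 811 reads, and did not pass the rule. Among the SRPK kinases, SRPK1 had 78.0 cRPKM in SRRM4, 78.0 in SRRM3, 87.6 in MSI1 and 82.2 in the empty vector, with ratios of 0.95 (0.932 to 0.968), 0.95 (0.933 to 0.968) and 1.07 (1.05 to 1.09). SRPK2, lower than SRPK1 per length, had 27.0, 27.1, 28.5 and 26.5 cRPKM in SRRM4, SRRM3, MSI1 and the empty vector. MSI1 was the highest library for 3 of the 6 kinases, CLK1, SRPK1 and SRPK2. Its lead over the empty vector was less than 1.2-fold, and for CLK1 within counting error. MSI1 was also the highest library for 33.6% of 12703 genes tested, and for 4 of the 41 genes listed.

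SRRM3 over the empty vector called 1 of the 41 genes higher, CLK2, where 8.33% of 12705 genes tested were called, and none lower, where 5.56% were. The median log2 fold was 0.016, against 0.0029 for all genes tested, with 25 of 41 positive and 16 negative, against 50.4% and 49.1% of genes tested. Intervals lay above 1 for 16 genes and below 1 for 10, against 29.6% and 28.1% of genes tested, and against 30.2% and 33.9% of those with a mean of at least 5 cRPKM, where the list had 16 and 9 of 40. At 2-fold none of the 41 was called, against 0.433% of genes tested higher and 0.0866% lower. Apart from the kinases, the largest fold was that of SRSF9, a short SR protein, which was lower in both SRRM libraries. It had 157 cRPKM in SRRM4, 159 in SRRM3, 176 in MSI1 and 188 in the empty vector, with ratios to the empty vector of 0.836 (0.815 to 0.858), 0.847 (0.826 to 0.868) and 0.936 (0.914 to 0.959), none past the rule. SRSF9 overlaps GATC on the opposite strand, which lay between 22.3 and 24.95 cRPKM. Both SRRM comparisons use the same empty-vector library.

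SRRM4 over SRRM3 called 2 of the 41 genes higher, RBM39 and LUC7L3, against 5.37% of 12704 genes tested, and none lower, against 8.95%. Intervals lay above 1 for 19 genes and below 1 for 7, against 27.1% and 30.5% of genes tested and 33.2% and 30.7% of those with a mean of at least 5 cRPKM. The median log2 fold was 0.035 against -0.0071, with 26 of 41 positive and 15 negative, against 48.2% and 51.3% of genes tested. At 2-fold none of the 41 was called, against 0.11% of genes tested higher and 0.118% lower. By role, the 3 exon junction genes lay between 0.16 and 0.18 on the log2 scale and the 6 splice site factors between 0.03 and 0.28, all positive. The 12 SR proteins lay between -0.12 and 0.14, with 6 on either side, and the 6 kinases between -0.05 and 0.13 with no interval excluding 1. PPIG, a nuclear cyclophilin with an RS domain, was the lowest at a ratio of 0.904 (0.875 to 0.934).

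**Figure D3:**
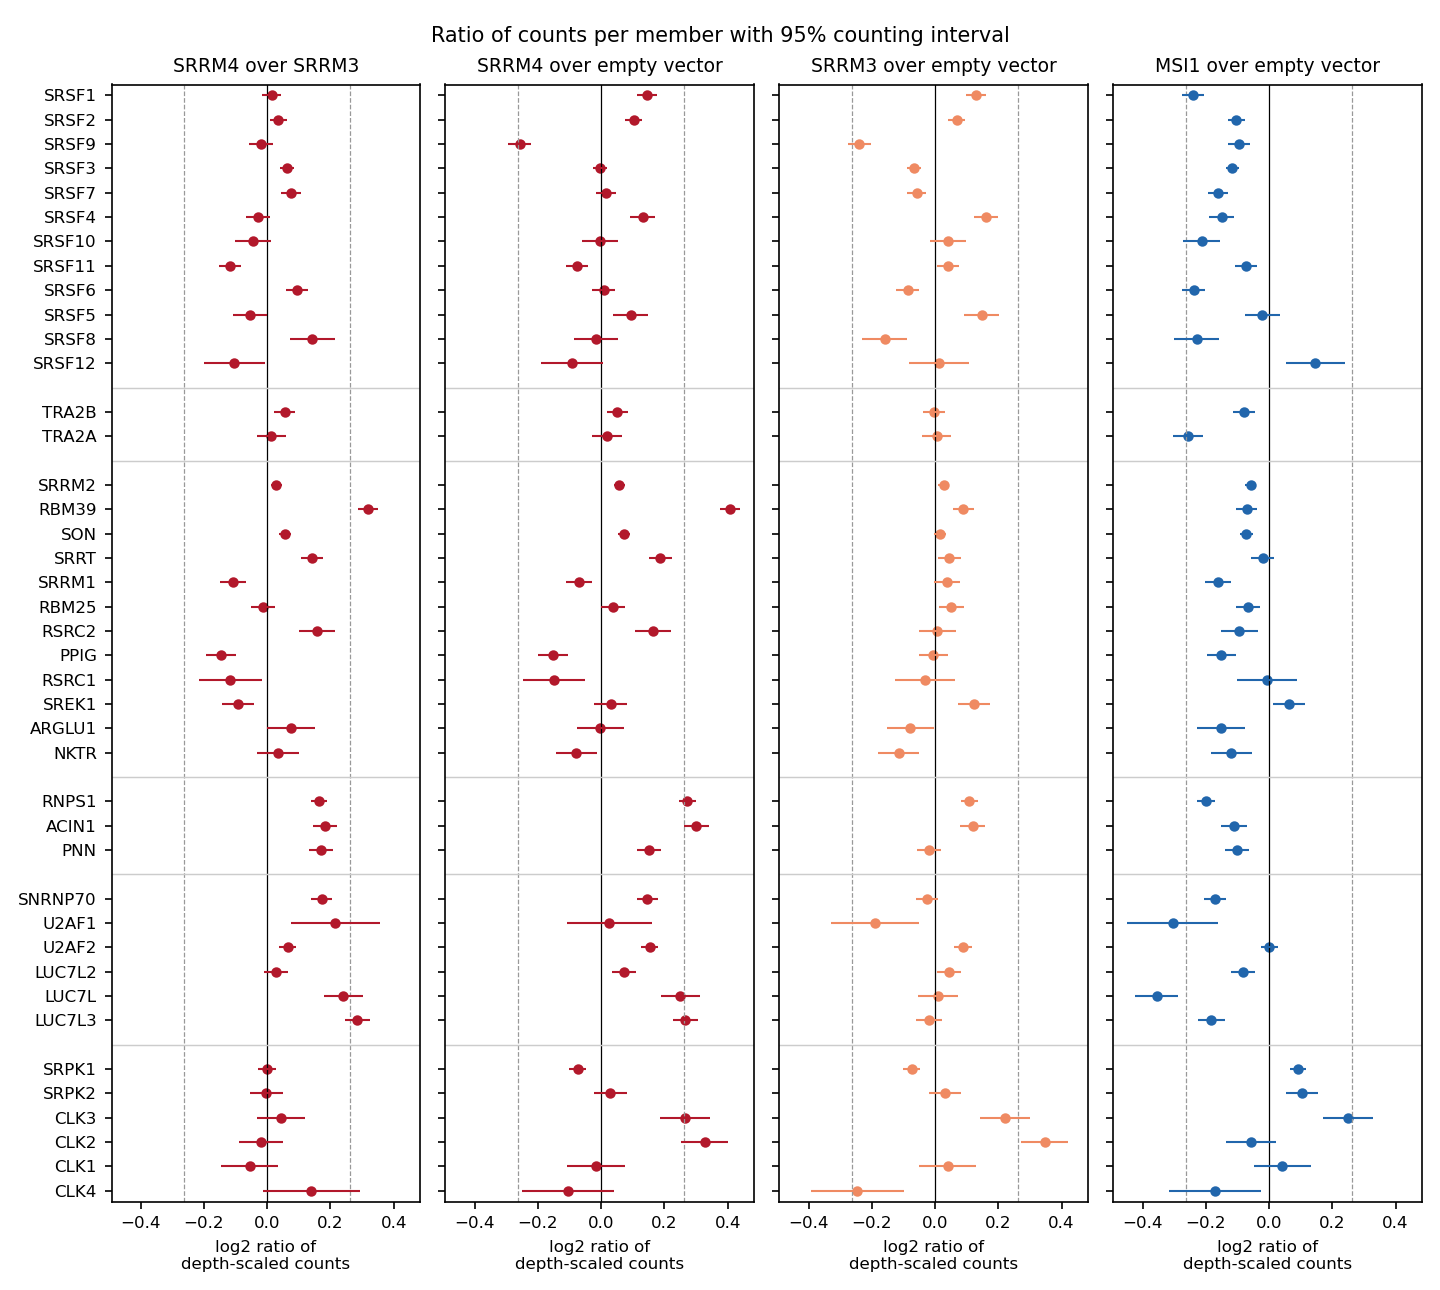
Log2 ratio of depth-scaled counts (horizontal axis) for each of the 41 genes in 4 comparisons, with bars for the 95% counting interval and dashed lines at 1.2-fold. Most points lie within the lines in each comparison, LUC7L3 and CLK3 lie on a line in SRRM4 over the empty vector without being called, and most points of MSI1 over the empty vector lie left of 0.

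The MSI1 library held lower levels of most SR genes than the empty vector, by small amounts. Of the 41 genes 34 had a negative fold, against 46.1% of 12705 genes tested, and 30 had an interval below 1, against 27.6% of genes tested and 32.2% of the 9013 with a mean of at least 5 cRPKM, where 29 of 40 did. The median log2 fold was -0.101, against 0.016 for all genes tested. Called at 1.2-fold were 2 genes lower, LUC7L and U2AF1, where 6.38% of genes tested were called, and none higher, where 9.77% were. At 2-fold none of the 41 was called, against 0.213% of genes tested higher and 0.142% lower. A positive fold was found for 7 of the 41, against 53.4%, and an interval above 1 for 5, against 32.3% of genes tested and 34.2% of those at 5 cRPKM or more. MSI1 was the lowest of the 4 libraries for 29 of the 41 genes, against 26.5% of 12703 genes tested. In a bulk library less RNA per cell and fewer cells with the RNA cannot be told apart.

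The lower levels ran through the SR proteins. Of 12, 10 had an interval below 1 in MSI1 over the empty vector, and the median log2 fold was -0.13. SRSF1 had a ratio of 0.847 (0.827 to 0.867) in MSI1, against 1.105 (1.08 to 1.13) in SRRM4 and 1.09 (1.07 to 1.12) in SRRM3 over the same control. SRSF6, which has 2 RNA-recognition motifs, had 48.9 cRPKM in SRRM4, 45.8 in SRRM3, 41.2 in MSI1 and 48.6 in the empty vector, with a ratio of 0.848 (0.826 to 0.87) in MSI1. SRSF10, a splicing repressor when dephosphorylated, had 60.9, 62.8, 52.7 and 61.1 cRPKM in SRRM4, SRRM3, MSI1 and the empty vector, with a ratio of 0.863 (0.829 to 0.899) in MSI1. SRSF4, a larger SR protein, had 78.2, 79.8, 64.3 and 71.4 cRPKM in the same order, with the MSI1 library lowest. SRSF3 and SRSF7, which have a single RNA-recognition motif, had ratios of 0.923 (0.909 to 0.937) and 0.894 (0.874 to 0.913) in MSI1. SRSF2, a nuclear speckle protein, and SRSF8, which is close to it in sequence, had ratios of 0.931 (0.913 to 0.949) and 0.853 (0.812 to 0.897), and reads between those 2 may be split. SRSF5, close to SRSF4 and SRSF6 in sequence, had 5251 reads in both the MSI1 and the empty-vector library and a ratio of 0.985 (0.948 to 1.02). SRSF12, a relative of SRSF10 at 7.68, 8.26, 9.06 and 8.19 cRPKM in SRRM4, SRRM3, MSI1 and the empty vector, was the exception, with a ratio of 1.11 (1.04 to 1.18) in MSI1.

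TRA2A and TRA2B activate exons through GA-rich enhancers. TRA2A had 68.3 cRPKM in SRRM4, 67.7 in SRRM3, 56.4 in MSI1 and 67.4 in the empty vector, so that MSI1 stood below 3 libraries that lay together, with a ratio of 0.837 (0.81 to 0.866) to the empty vector, short of the rule. TRA2B differed less, between 74.9 cRPKM in MSI1 and 82.0 in SRRM4. Of the 12 SR-related cofactors, 9 had an interval below 1 in MSI1 over the empty vector and 1, the SR-like regulator SREK1, an interval above 1 with a ratio of 1.04 (1.01 to 1.08). The speckle scaffolds SON and SRRM2 had ratios of 0.951 (0.938 to 0.964) and 0.961 (0.949 to 0.973), and the coactivator SRRM1 had 0.894 (0.868 to 0.921). SON overlaps DONSON on the opposite strand along 17940 bases, at 53.7 cRPKM in MSI1 and 65.1 in the empty vector. On that strand it also overlaps GART, at 96.1 and 103.6 cRPKM, and SRRM2 overlaps ELOB, at 160 and 167. Reads of these overlaps cannot be assigned, as the use of strand in counting is not given. RBM25, ARGLU1, RSRC2, PPIG and NKTR, splicing factors and cyclophilins with RS domains, had ratios between 0.90 and 0.955. For SRRT, a partner of the nuclear cap-binding complex, and RSRC1 the interval included 1.

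Setting the SRRM libraries against MSI1 in place of the empty vector gave more calls. SRRM4 over MSI1 called 11 of the 41 genes higher, where 7.95% of 12704 genes tested were called, and SRRM3 over MSI1 called 5, where 10.1% were. Neither called any of the 41 lower, where 11.7% and 10.2% of genes tested were called. The 5 were SRSF1, SRSF4, RNPS1, LUC7L and CLK2, and each was also among the 11, which further held TRA2A, RBM39, ACIN1, LUC7L3, U2AF1 and SNRNP70. The U2AF1 call is uncertain here too because of the copy, with 885 reads in SRRM4 against 735 in MSI1. U2AF1L5 had 537 and 528 reads in the same libraries. These comparisons share the MSI1 library. The widest was LUC7L, at a ratio of 1.52 in SRRM4 over MSI1.

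**Figure D4:**
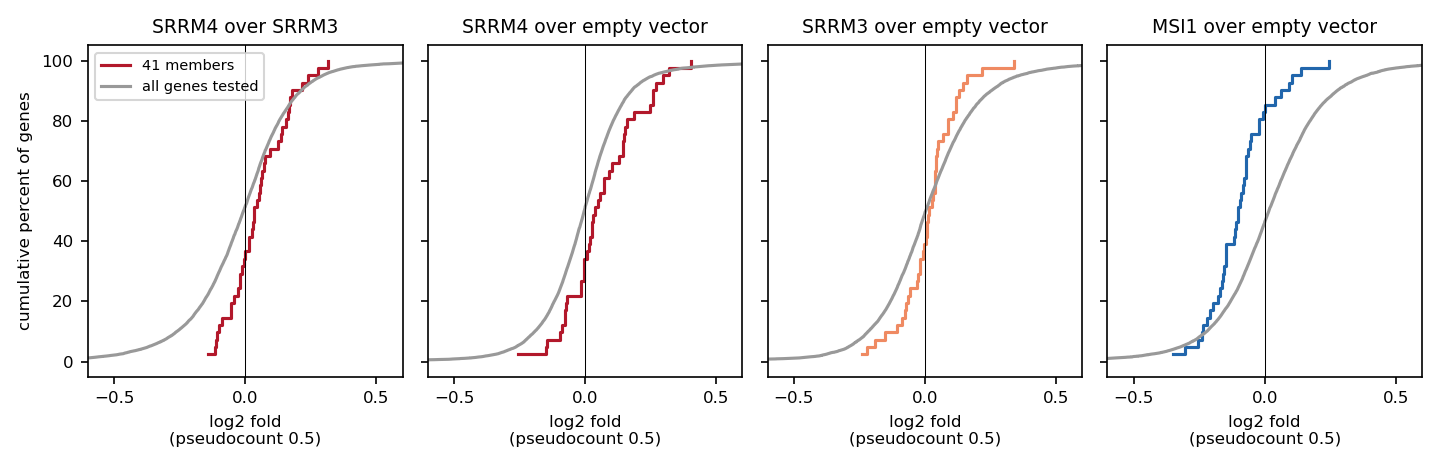
Cumulative percent of genes (vertical axis) by log2 fold with 0.5 added to cRPKM (horizontal axis), for the 41 genes in colour and all genes tested in grey, in 4 comparisons. The line of the 41 genes lies left of the grey line over most of its height in MSI1 over the empty vector, with medians of -0.101 and 0.016, and close to it in SRRM3 over the empty vector, with 0.016 and 0.0029.

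Other genes of the splicing pathway were counted from 4 further lists. Of 24 snRNP proteins and 3′ splice site factors, none was called in SRRM4 over the empty vector, where 3.57% of genes tested were called higher. A positive fold was found for 20 of the 24, against 48.5% of genes tested, with a median log2 fold of 0.096 against -0.0035. In SRRM4 over SRRM3, 3 of the 24 were called higher, SNRPB2, SF3B2 and ZRSR2, against 5.37% of genes tested. SNRPB2, a U2 snRNP protein, had 39.8 cRPKM in SRRM4, 30.6 in SRRM3, 35.3 in MSI1 and 42.5 in the empty vector. It was the 1 gene of these 24 called lower over the empty vector in SRRM3 and in MSI1. The ratio was 0.721 (0.694 to 0.749) in SRRM3, where 5.56% of genes tested were called lower. In MSI1 it was 0.831 (0.801 to 0.862), where 6.38% were. Of 17 kinases, phosphatases and importers tested, none was called in SRRM4 over the empty vector, where 3.57% of genes tested were called higher and 3.87% lower. None was called in MSI1 over the empty vector either, where 9.77% were called higher and 6.38% lower. In SRRM3 over the empty vector 1 of the 17 was called lower, where 5.56% of genes tested were. It was PPP1CA, a catalytic subunit of protein phosphatase 1, at 0.832 (0.811 to 0.854). In SRRM4 over SRRM3, 1 of the 17 was called lower, where 8.95% of genes tested were. It was DYRK1B, a kinase, at 0.808 (0.768 to 0.851).

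Other SR-related genes were counted without SRRM3 and SRRM4, which passed the filter on low values only through their own induced libraries. Of 23 tested, 3 were called higher in SRRM4 over the empty vector, where 3.57% of genes tested were, and none lower. They were the cyclin gene CCNL2, at 23.2 against 16.2 cRPKM and a ratio of 1.44 (1.36 to 1.52), CLASRP, whose protein binds CLK4, at a ratio of 1.29 (1.21 to 1.38), and CACTIN at 1.21 (1.14 to 1.29). In SRRM3 over the empty vector 1 of 23 was called lower, ZRANB2 at 0.818 (0.785 to 0.851), where 5.56% of genes tested were. In MSI1 over the empty vector 2 of 23 were called lower, PRPF38A at 0.77 (0.722 to 0.822) and the helicase gene DDX46 at 0.784 (0.767 to 0.802), where 6.38% of genes tested were. In SRRM4 over SRRM3, SART1, a tri-snRNP recruitment factor, at 31.6 against 24.4 cRPKM, and CCNL2 were the 2 of 23 called higher, where 5.37% of genes tested were. Of the 8 exon junction genes and partners, 1 was called higher in MSI1 over the empty vector, where 9.77% of genes tested were. It was UPF3B, a decay factor, at 1.28 (1.22 to 1.35). MAGOHB was the 1 called lower in SRRM3, at 0.803 (0.748 to 0.862), where 5.56% were. MAGOHB was also the 1 called higher in SRRM4 over SRRM3, at 1.25 (1.165 to 1.34), where 5.37% were. It had 10.97 cRPKM in SRRM4, 8.77 in SRRM3 and 10.91 in the empty vector.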

How the data were processed

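Per library, the deposited file gives a cRPKM and a read count for each Ensembl gene, with no header. Per the submitters' processing notes the genome was GRCh38, hg38; the sources used here give no aligner, counting program, annotation or use of strand. The deposited RPKM values are the deposited count over library total and a length per gene: over 6261 genes with at least 2000 reads in every library, the count-to-cRPKM ratio between libraries was within 0.40% of the ratio of totals. Of 41614 genes listed, 1426 without a value were left out. Symbols were matched for 39941 of 40188, with coordinates from GENCODE 29.

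The members, lists and rules were chosen with earlier results of these data known. No test was possible with 1 library per group. Folds were log2 ratios of cRPKM with a pseudocount of 0.5, over genes at a mean of 1 cRPKM or more, leaving out the induced genes compared. A call needed 1.2-fold and an exact conditional (Clopper-Pearson) 95% interval of the count ratio that excluded 1. Reads are not independent molecules, so intervals cover counting error only. By rule, all 4 values were given for SRSF11, RNPS1, the kinases, the genes called in any comparison, and those with the highest and lowest level and the smallest spread. From each further list up to 3 called genes with the largest fold were named. The other SR proteins, PNN, PPIG and the cofactors named with a ratio were chosen after their values were seen. One blood cell marker is not reported here. The steps were tested on simulated counts. Alternatives were other pseudocounts, filters, fold rules and controls, centring on the median, and CPM with TMM factors. These factors came from edgeR 4.0.16 in R 4.3.3; the rest was computed in Python 3.11.15 (pandas 2.3.3, numpy 2.4.6, scipy 1.17.1) and drawn with matplotlib 3.10.9.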

Additional observations from a re-analysis of the deposited data

Results flagged for a closer look

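SRSF11 lay on opposite sides of the empty vector in the SRRM libraries, each by more than counting error when scaled to library totals, with ratios of 0.949 in SRRM4 and 1.03 in SRRM3. With TMM scaling, SRRM4 had a ratio of 0.952 (0.929 to 0.975) and SRRM3 1.02 (0.997 to 1.045), an interval that includes 1. The difference was not tested, as there is 1 library per line, and both ratios use the same control.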

How the results depend on the processing

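Counts of called genes depended on the fold rule, the control and the scaling. At 1.1-fold the genes called higher and lower were 11 and 1 between SRRM4 and SRRM3, against 15.9% and 20% of genes tested. Over the empty vector they were 13 and 3 for SRRM4, against 11.7% and 13.5%, and 4 and 4 for SRRM3, against 19.2% and 16.5%. For MSI1 over the empty vector they were 2 and 16, with the share of genes tested not given here. For both SRRM libraries against both others, 1 gene was lower at 1.1-fold, SRSF9, where 2.09% of genes tested were. At 1.5-fold and at 2-fold no gene was called in any of these 4 comparisons, where the 1.2-fold counts were 2 higher, 4 higher, 1 higher and 2 lower. Few genes tested were called at 1.5-fold, 0.535% higher and 1.09% lower in SRRM4 over SRRM3. Over the empty vector the shares were 0.748% and 0.252% for SRRM4 and 1.45% and 0.464% for SRRM3, and that for MSI1 is not given here. At 1.5-fold 0 remained for both SRRM libraries against both others, where 0.323% of genes tested were higher and 0.0157% lower. A pseudocount of 2 gave 1 gene higher in SRRM4 over SRRM3, against 3.79% of genes tested, since LUC7L3 then had a log2 fold of 0.262. CPM with TMM factors gave 5 genes lower in MSI1 over the empty vector, with the share of genes tested under that scaling not given here. With the main scaling 2 were lower, against 6.38% of genes tested. With MSI1 as control the counts were 11 higher in SRRM4 and 5 higher in SRRM3, and the median log2 folds were 0.152 and 0.103. The median log2 fold of MSI1 over the empty vector stayed between -0.133 and -0.097 under the other pseudocounts, filters, centring and scaling, with 33 of 40 to 35 of 41 genes below 0. Of the named genes' folds, 323 kept their side of the rule under the alternatives, 10 came to pass it and 1 no longer did. Among the 10 were LUC7L3 and CLK3 for SRRM4 against the empty vector. Taking MSI1 as control, which is another comparison, gave 21 of the 323 and 5 of the 10. No fold changed sign when called. No paired analysis was possible because each group has 1 library. The depth leaves intervals of a few percent for most of these genes, and CLK4 and U2AF1, at 693 to 895 reads in a library, are the least precise.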

Other observations

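Reads of SRRM4 outside its own library were few and unequal, at 95 in SRRM3, 6 in MSI1 and 201 in the empty vector. SRRM3 outside its own library had 298 reads in SRRM4, 138 in MSI1 and 109 in the empty vector.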
